A study of Mus musculus with 6 samples.

Results

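The genes described here are 10 genes of macrophages and of the first component of complement: C1qa, C1qb, C1qc, Lyz2, Csf1r, Aif1, Tyrobp, Fcer1g, Cx3cr1 and Apoe. These members were taken by gene name from 6 deposited transcript tables of the mouse pituitary, and are 10 of the 50348 gene names annotated in those tables. All 10 genes are listed in 5 of the tables. The adult Ghcre table ends within chromosome 5 and lists 7 of them, so that Tyrobp, Cx3cr1 and Apoe were not measured in that library.

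RNA of sorted pituitary cells and of whole glands was sequenced after depletion of ribosomal RNA, with 1 library in each group. The series was made to study long non-coding RNAs of the developing pituitary and its cell types. The adult Tshbcre library came from 42 pooled glands, the adult Ghcre library from 12 and the adult Lhbcre library from 7, all of mice aged 7 weeks. The P7 Tshbcre library came from 5 pooled glands at postnatal day 7 (P7). Each of these mice carried Cre under the control of a hormone gene (Tshb for thyrotropes, Gh for somatotropes, Lhb for gonadotropes) and a YFP reporter at the ROSA locus, and the fluorescent cells were collected by FACS. A reporter of this kind marks cells in which the driver is active and cells descended from them. The references were whole glands, 1 gland at 7 weeks and 8 glands at P7. The sample titles call the P7 glands nontransgenic and give no genotype for the adult gland. No treatment and no sex of the animals is given in the labels, and the same protocol text stands for sorted and whole libraries.

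Macrophages reside in the anterior and posterior pituitary, where they lie along vessels and between the hormone-producing cells. C1q, which opens the classical pathway of complement, is built from the products of C1qa, C1qb and C1qc and is made mainly by tissue macrophages and microglia rather than by the liver. Receptors such as CSF1R and CX3CR1 tie these cells to growth factors and chemokines of their tissue, and TYROBP and FCER1G pass signals from activating receptors to kinases. None of the 10 genes is a marker of hormone-producing cells.

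Values are FPKM (fragments per kilobase of a transcript and per mapped fragments of the library), summed over the annotated transcripts of a gene and divided by 1 factor per library (scaled FPKM). The factors lay between 0.758 in the adult Ghcre library and 1.42 in the P7 whole gland. Relative depth, with the adult whole gland as 1, was 2.73 in adult Ghcre, 2.23 in adult Lhbcre and 1.15 to 1.21 in the other 3 libraries, so that low values are best resolved in adult Ghcre and adult Lhbcre. With 1 library in a group there are no replicates, no test was made, and the bounds deposited with each value reflect only how reads were counted and assigned inside that library. The driver genes were looked at as a check of the labels. Tshb was at 1075 in adult Tshbcre cells, against 33.1 in the adult whole gland, and at 3001 in the P7 Tshbcre library, against 61.0 in the P7 whole gland. Lhb was at 2198 in the adult Lhbcre library and at 2904 in the adult Tshbcre library, against 637 in the adult whole gland, and Gh is not listed in the adult Ghcre table.

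The 3 C1q genes lie beside each other on chromosome 4 (mm39), C1qb at 136607437 to 136613511, C1qc at 136617112 to 136620242 and C1qa at 136623227 to 136626155. The 250 bases upstream of 2 of them are shown because the C1q genes had like levels in the whole glands and in adult Tshbcre. These are the C1q genes with an entry in the promoter table. The sequences are from RefSeq on the older build GRCm38.p6, written 5′ to 3′ on the strand of the gene, with capitals marking GAGGAA or its reverse complement TTCCTC, the core of the purine-rich element bound by the macrophage factor PU.1.
C1qb (chr4:136886201-136886450, minus strand): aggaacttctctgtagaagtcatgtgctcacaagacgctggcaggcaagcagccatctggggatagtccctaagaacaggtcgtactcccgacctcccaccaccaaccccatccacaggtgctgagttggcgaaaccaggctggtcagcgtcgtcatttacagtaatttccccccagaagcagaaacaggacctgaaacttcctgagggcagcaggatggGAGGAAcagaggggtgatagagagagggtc
C1qc (chr4:136892915-136893164, minus strand): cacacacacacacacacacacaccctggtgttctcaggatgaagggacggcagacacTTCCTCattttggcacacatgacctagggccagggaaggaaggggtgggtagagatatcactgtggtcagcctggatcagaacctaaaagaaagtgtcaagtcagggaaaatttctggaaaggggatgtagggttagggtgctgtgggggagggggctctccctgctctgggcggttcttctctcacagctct
GAGGAA was searched on both strands, and overlapping matches were allowed. Its first base lay 30 bases before the start of C1qb, and that of TTCCTC lay 193 bases before the start of C1qc. The 7 members with an entry in the promoter table have 9 upstream windows, of which 5 held the motif, those being windows of C1qb, C1qc, Aif1 and Apoe. The motif was in 23.3% of the 32851 upstream windows of the same length in that table, and Lyz2, Fcer1g and Cx3cr1 held no match to these letters in this window.

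The complement genes C1qa, C1qb and C1qc had nearly the same profile in the whole glands and in the adult Tshbcre library. C1qa, which encodes the A chain, stood at 9.78 scaled FPKM in adult Tshbcre, 1.43 in adult Ghcre and 4.25 in adult Lhbcre, against 16.4 in the adult whole gland, and at 0.735 in the P7 Tshbcre library, against 7.54 in the P7 whole gland. C1qb, which encodes the B chain, stood at 11.2, 0.792 and 1.89 in the adult Tshbcre, Ghcre and Lhbcre libraries, against 18.8 in the adult whole gland, and at 0.509 in P7 Tshbcre, against 8.38 in the P7 whole gland. C1qc, which encodes the C chain, stood at 9.31, 0.761 and 0.827 in the same 3 adult sorted libraries, against 14.3 in the adult whole gland, and at 0.340 in P7 Tshbcre, against 6.41 in the P7 whole gland. All 3 genes were highest in the adult whole gland, followed by adult Tshbcre and then the P7 whole gland, and lowest in P7 Tshbcre, where the bounds of C1qb overlapped those of adult Ghcre. In bulk RNA, fewer cells of a type and less RNA per cell cannot be told apart.

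Of the remaining effector genes, Lyz2, the lysozyme of macrophages and granulocytes, stood at 11.0 in adult Tshbcre, 0.154 in adult Ghcre and 1.76 in adult Lhbcre, against 11.9 in the adult whole gland. It stood at 0.00995 in P7 Tshbcre, with an upper bound of 0.0498, against 3.78 in the P7 whole gland. Lyz2 was thus at almost the same level in the adult Tshbcre library and the adult whole gland, and it had the lowest non-zero value of any member in P7 Tshbcre. Lyz1 is a close copy of Lyz2 and reads may be shared between them; the ratio of Lyz2 to Lyz1 was 5.63 in adult Tshbcre, against 4.89 in the adult whole gland.

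Apoe encodes apolipoprotein E, a lipid carrier secreted by macrophages and by several other cell types, and was the most abundant of the 10 genes wherever it was measured. It stood at 66.2 scaled FPKM in adult Tshbcre and 30.9 in adult Lhbcre, against 89.5 in the adult whole gland, and at 5.16 in P7 Tshbcre, against 48.7 in the P7 whole gland. Apoe made up 53.9% of the summed level of the 10 genes in adult Tshbcre and 71.3% in adult Lhbcre, against 50.7% in the adult whole gland. It had a higher level per length than any other member, in the P7 Tshbcre library as well, where the other 9 were at 1.01 or less. The transcript NM_001305844.1 of 1193 nt took all of the Apoe signal in 4 libraries and 86.0% of it in adult Lhbcre, where NM_009696.4 took the other 14.0%.

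Among the surface receptors, Csf1r encodes the receptor for the growth factors CSF1 and IL-34, on which most tissue macrophages depend. It stood at 3.16 in adult Tshbcre, 0.159 in adult Ghcre and 0.834 in adult Lhbcre, against 6.34 in the adult whole gland. It stood at 0.217 in P7 Tshbcre and is listed at 0 in the P7 whole gland, although that table holds an assembled transcript of 3726 nt without a name under the same gene identifier, at 4.01 scaled FPKM. With that transcript counted, Csf1r in the P7 whole gland lies between the adult whole gland and the adult Tshbcre library. Cx3cr1 encodes the receptor for fractalkine, a chemokine held on cell surfaces. It stood at 2.09 in adult Tshbcre and 0.689 in adult Lhbcre, against 3.87 in the adult whole gland, and at 0.254 in P7 Tshbcre, against 2.65 in the P7 whole gland. The gene model Gm33858 overlaps Cx3cr1 and the microRNA gene Mir6983 lies within Csf1r, and the sources used here do not say if reads were assigned by strand.

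The ligands of these receptors were measured too. Csf1 stood at 1.57 in adult Tshbcre, 0.797 in adult Ghcre and 0.513 in adult Lhbcre, against 2.99 in the adult whole gland, and at 0.492 in P7 Tshbcre, against 0.491 in the P7 whole gland. Cx3cl1, which encodes fractalkine, stood at 19.5 in adult Tshbcre and 14.5 in adult Lhbcre, against 31.0 in the adult whole gland, and at 9.30 in P7 Tshbcre, against 22.3 in the P7 whole gland. Il34 is listed at 0 in each table that lists it. The fractalkine gene was at 9.30 scaled FPKM or more in each sorted library that lists it, where its receptor Cx3cr1 was at 2.09 or less.

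The signalling adapters Tyrobp and Fcer1g carry activation motifs to which the kinase SYK binds. Tyrobp stood at 4.78 in adult Tshbcre and 0.559 in adult Lhbcre, against 7.10 in the adult whole gland, and at 1.01 in P7 Tshbcre, against 5.50 in the P7 whole gland. Fcer1g, whose product is the common gamma chain of Fc receptors, stood at 4.41 in adult Tshbcre, 0.207 in adult Ghcre and 1.63 in adult Lhbcre, against 6.94 in the adult whole gland. It is listed at 0 in P7 Tshbcre, with both bounds at 0, against 4.49 in the P7 whole gland. The ratio of Tyrobp to Fcer1g was 1.08 in adult Tshbcre, against 1.02 in the adult whole gland, and 0.343 in adult Lhbcre, with bounds of 0.162 and 0.631 that lie below those of the adult whole gland.

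Aif1 encodes the actin-binding protein IBA1, a usual stain for microglia and macrophages, and was the lowest of the members in both adult whole gland and adult Tshbcre. It stood at 0.863 in adult Tshbcre and 0.192 in adult Ghcre and is listed at 0 in adult Lhbcre, against 1.37 in the adult whole gland. In the young libraries it stood at 0.583 in P7 Tshbcre, against 0.374 in the P7 whole gland, with bounds that overlap. The P7 whole gland table also holds an unnamed assembled transcript under the gene identifier of Aif1, and with it the direction turns: P7 Tshbcre stood at 0.583, against 0.910 in the P7 whole gland, or 64.1%. The tables split Aif1 over 4 annotated transcripts, and the transcript that took most of the signal differed between libraries. NM_001361502.1 took 100% in the adult whole gland and 68.0% in adult Tshbcre, NM_019467.3 took 100% in the P7 whole gland, and XM_006523503.5 took 100% in adult Ghcre. Down its order of levels, each library overlapped the next in its bounds except adult Ghcre and adult Lhbcre, so that this order is not resolved.

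**Figure D1:**
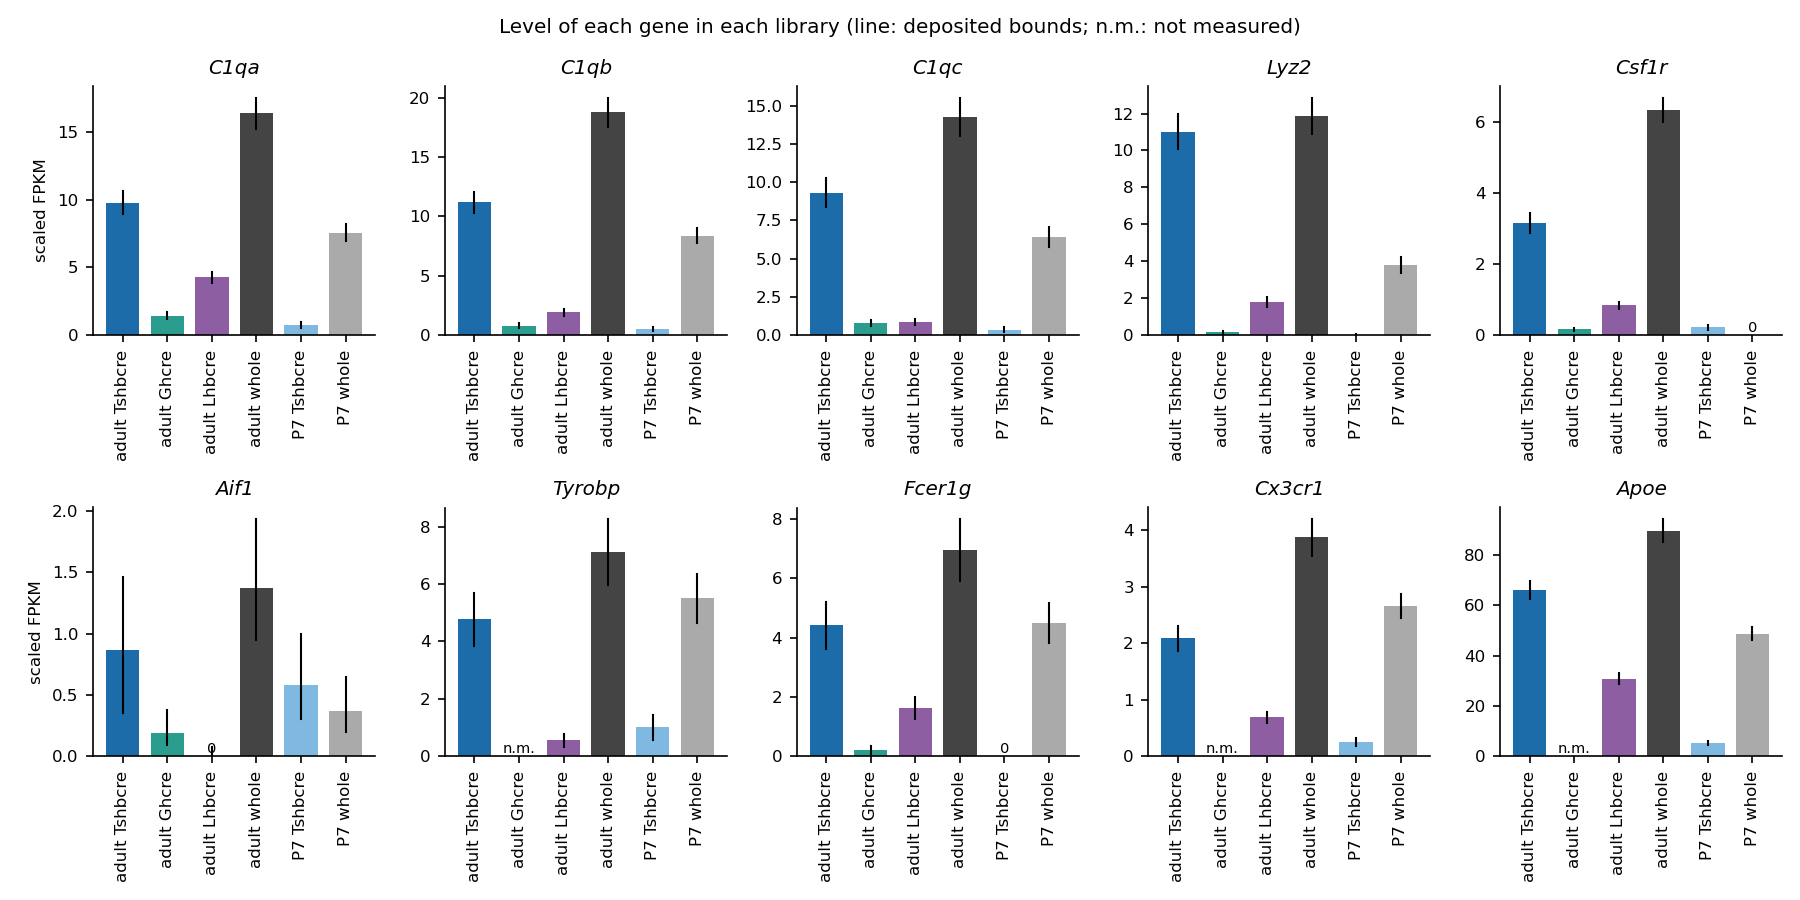
Level of each of the 10 genes (vertical axis, scaled FPKM from 0, own scale for each gene) in each of the 6 libraries, with the bounds deposited for each library as a line. The adult whole gland has the highest bar for all 10 genes, adult Tshbcre follows it closely for Lyz2 at 11.0 against 11.9, and P7 Tshbcre bars are near 0 for most genes; "0" marks a gene listed at 0 and "n.m." one not measured.

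Sorted libraries were then compared with the whole gland of the same age. A difference is between values of log2(scaled FPKM + 1), and a gene was counted as apart at 4-fold or more on that scale with the higher library at 1 or more. That scale understates the difference of low genes, so the level in the sorted library is also given as a percentage of the whole gland.

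The adult Tshbcre library had the highest level of each of the 10 genes among the sorted libraries that list the gene. For Aif1 its bounds overlapped those of P7 Tshbcre and adult Ghcre. None of the 10 genes was 4-fold lower or higher than in the adult whole gland, where 3.84% of all 15797 genes compared were 4-fold lower and 3.22% were 4-fold higher. All 10 were below the adult whole gland, as were 8091 of the 15797 genes compared, with a median log2 difference of -0.56, against -0.02 over all genes. Their levels were 49.8% to 92.9% of the adult whole gland, with a median of 63.3%. Csf1r was the lowest at 49.8% (log2 difference -0.82) and Lyz2 the highest at 92.9% (-0.10). The bounds of the adult Tshbcre library and the adult whole gland overlapped for Lyz2 and Aif1 and were separate for the other 8 genes.

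The adult Ghcre library was far below the whole gland. Of 7 members listed, 6 were 4-fold lower and none was higher, where 5.35% of the 11285 genes compared were 4-fold lower and 4.44% higher. Their median log2 difference was -2.84, against 0.00 over all genes. Levels were 1.30% to 14.0% of the adult whole gland, and Lyz2 was at 1.30%, C1qb at 4.21% and C1qa at 8.74%. Aif1, at 14.0%, was the member not counted as apart, since its level in the whole gland was low. With assembled transcripts of the same gene identifier counted, Aif1 was at 40.4%, Fcer1g at 12.9% in place of 2.98% and Csf1r at 8.34% in place of 2.51%, and the same number of members, 6, was 4-fold lower. With assembled transcripts within the locus counted, C1qa was no longer 4-fold lower (log2 difference -1.53) and the count was 5.

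The adult Lhbcre library was intermediate. Of 10 members, 5 were 4-fold lower and none was higher, where 5.46% of the 16452 genes compared were 4-fold lower and 3.85% higher, and the median log2 difference was -1.86, against 0.00 over all genes. The 5 genes were C1qb, C1qc, Lyz2, Csf1r and Tyrobp, and Csf1r lay just past the threshold, at a log2 difference of -2.0. C1qc was the lowest of the 9 genes above 0 at 5.80% of the adult whole gland (log2 difference -3.06), and Apoe the highest at 34.5% (-1.50). The count was 3 with libraries scaled to equal sums, 3 with assembled transcripts of the locus added and 8 with a pseudocount of 0.1, and all 10 genes were below the adult whole gland under each of these.

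The P7 Tshbcre library, from the same driver as the adult one, was far below the P7 whole gland. Of 8 members compared, 6 were 4-fold lower, 5 of them above 0 in both libraries, and none was higher. Over all 16369 genes compared, 6.11% were 4-fold lower and 3.26% higher, and 2.21% were lower among those above 0 in both. The median log2 difference was -2.38, against -0.01 over all genes, and levels were 0.263% to 18.3% of the P7 whole gland over the 7 genes above 0 in both. Apoe was the furthest down on the log scale at -3.01, with 10.6% of the P7 whole gland. Csf1r and Aif1 were below 1 in both libraries by their annotated transcripts and were not compared. With the assembled transcripts counted, Csf1r in P7 Tshbcre was at 5.42% of the P7 whole gland and Aif1 at 64.1%.

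**Figure D2:**
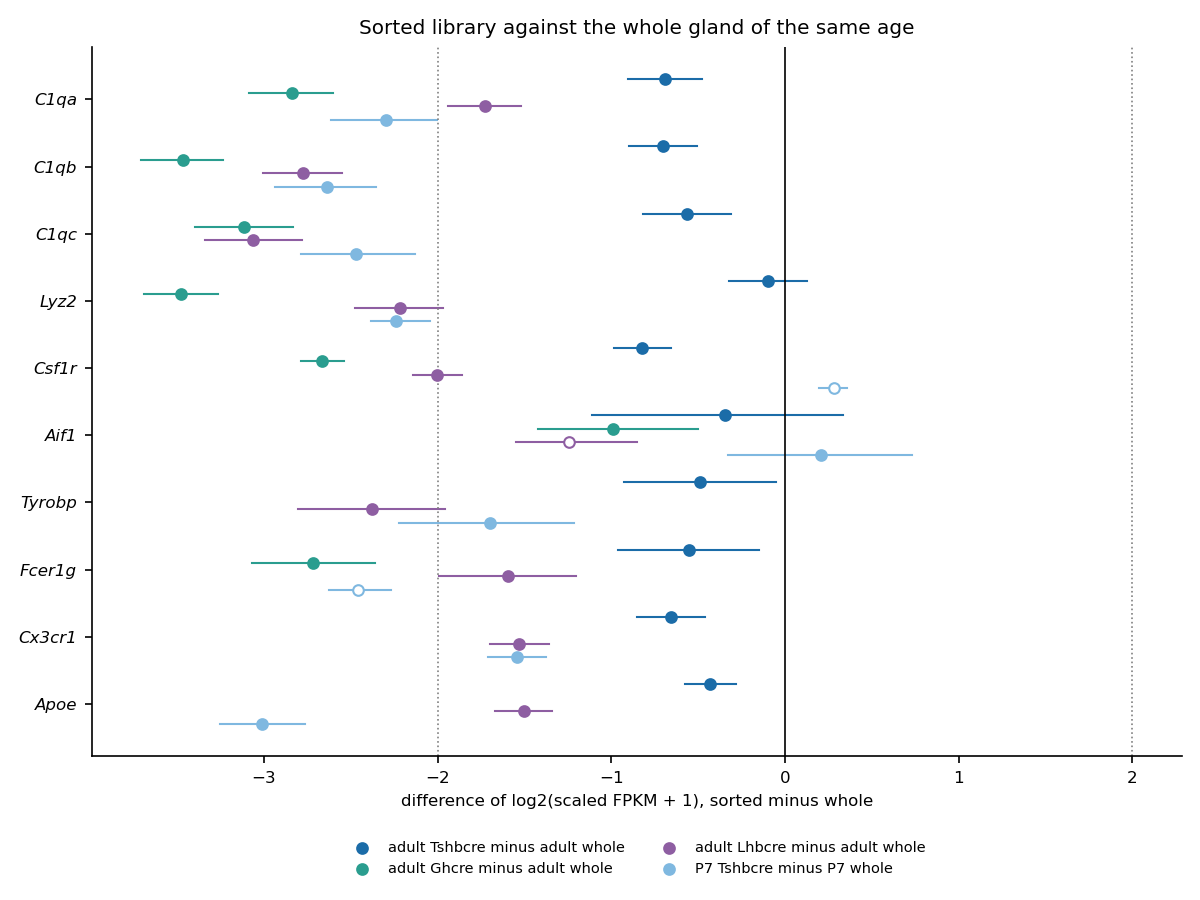
Difference of log2(scaled FPKM + 1) of each gene (rows) between a sorted library and the whole gland of the same age, with lines for the most extreme differences the deposited bounds allow. Open points mark genes listed at 0 in 1 of the pair and dotted lines 4-fold; adult Tshbcre points lie between -0.82 and -0.10, and those of the other 3 libraries lie mostly below -1.

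Sorted adult libraries were also set against each other. Of 9 members compared, C1qb, C1qc and Lyz2 were 4-fold higher in adult Tshbcre than in adult Lhbcre, where 4.97% of all genes were, and none was lower, where 4.33% were, with a median log2 difference of 1.18. Of 6 members compared, C1qa, C1qb, C1qc, Lyz2 and Fcer1g were 4-fold higher in adult Tshbcre than in adult Ghcre, where 5.24% of all genes were, and none was lower, where 5.13% were; the median was 2.36. None of 4 members compared was 4-fold apart between adult Lhbcre and adult Ghcre, where 4.2% of all genes compared were higher in adult Lhbcre and 5.23% were lower. C1qb, Lyz2 and Fcer1g, at 1.89, 1.76 and 1.63 in adult Lhbcre, were too low to be counted as 4-fold higher on this scale. By annotated transcripts the 4 members were at 239% to 1146% of adult Ghcre. Fcer1g, at 788%, was at 181% with assembled transcripts of the same gene identifier counted. In adult Tshbcre against adult Ghcre, Fcer1g was no longer 4-fold higher with assembled transcripts of the same gene identifier (log2 difference 1.52, against 2.17 without them), nor with those within the locus (1.53), and C1qa was not with those within the locus (0.47). All members compared in these 3 pairs were higher in the library named first, and all were above 0 in both. C1qc was under the minimum of 1 in both adult Lhbcre and adult Ghcre, at 0.827 and 0.761, and its log2 difference was -0.47 with libraries scaled to equal sums. With libraries scaled to equal sums, 1 gene was 4-fold higher in adult Tshbcre than in adult Lhbcre and 1 than in adult Ghcre, and with assembled transcripts of the locus added 0 were higher than in adult Lhbcre. These comparisons share libraries with each other and with the whole-gland comparisons.

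Marker lists of macrophages and of other cells were set beside the members. Of 25 genes of a macrophage core list (such as Ctss, cathepsin S, and Mpeg1, perforin-2), none was 4-fold lower in adult Tshbcre among the 21 compared, with a median log2 difference of -0.44. Ctss stood at 13.8 in adult Tshbcre, against 24.0 in the adult whole gland, and Mpeg1 at 5.76, against 8.66. The summed level of the list was 52.7 in adult Tshbcre and 23.5 in adult Lhbcre, against 84.6 in the adult whole gland. It was 9.78 in P7 Tshbcre, against 47.4 in the P7 whole gland. Over the 19 genes listed in adult Ghcre it was 10.3, against 75.2 in the adult whole gland. No gene of the list was at 0 in adult Tshbcre, and 2 were at 0 in adult Ghcre (Cd14 and Unc93b1). In adult Lhbcre 4 were at 0 (Adgre1, Cd52, Fcgr3 and Lst1), as were 4 in P7 Tshbcre (Fcgr1, Fcgr3, Lst1 and Spi1).

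In adult Tshbcre the markers of vessels and connective tissue were lower than those of the macrophage core list. Other immune lists were not all as near the whole gland as that list. The median was -1.43 over 7 genes of monocytes and antigen presentation, of which 6 were lower. It was -1.10 over 9 genes of chemokines and inflammatory cytokines, of which 9 were lower. It was -0.56 over 5 genes of a perivascular macrophage list, of which 3 were lower, and -0.56 over 6 genes of a microglia list, of which 5 were lower. Over the 5 microglia genes above 0 in both libraries the median was -0.93. Of 12 endothelial genes 6 were 4-fold lower, with a median log2 difference of -2.05, and Plvap, a protein of fenestrated vessels, stood at 8.09, against 63.1 in the adult whole gland. Of 11 mesenchymal and pericyte genes compared 7 were 4-fold lower, with a median of -2.12, and Mgp, a matrix protein, stood at 5.17, against 44.2. Of 5 erythroid genes compared 4 were 4-fold lower, with a median of -3.13. Of 12 genes of folliculostellate and stem cells compared 1 was 4-fold lower, with a median of -0.97 and a summed level of 100.4, against 197.5 in the adult whole gland. The part of other cells in the level of the 10 genes was not tested.

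In P7 Tshbcre all of these lists were low. All 12 endothelial genes were 4-fold lower, with a median of -2.85, as were 11 of 12 mesenchymal genes, with a median of -3.28, and 8 of 13 folliculostellate and stem genes, with a median of -2.29. Of 13 macrophage core genes compared 12 were lower, with a median of -1.42. Of these, 2 were 4-fold lower, Ctss at 0.576, against 7.02 in the P7 whole gland, and Cd52, a surface protein of leukocytes, at 0.227, against 3.93. A gene that is low in the whole gland cannot be counted as 4-fold lower on this scale. Mpeg1, at 0.173, against 2.96 in the P7 whole gland, was such a gene, so the counts of these lists are not alike in reach. Neutrophil genes S100a8 and S100a9 are listed at 0 in all 4 sorted libraries and stood at 1.47 and 2.01 in the adult whole gland and at 3.30 and 4.09 in the P7 whole gland.

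**Figure D3:**
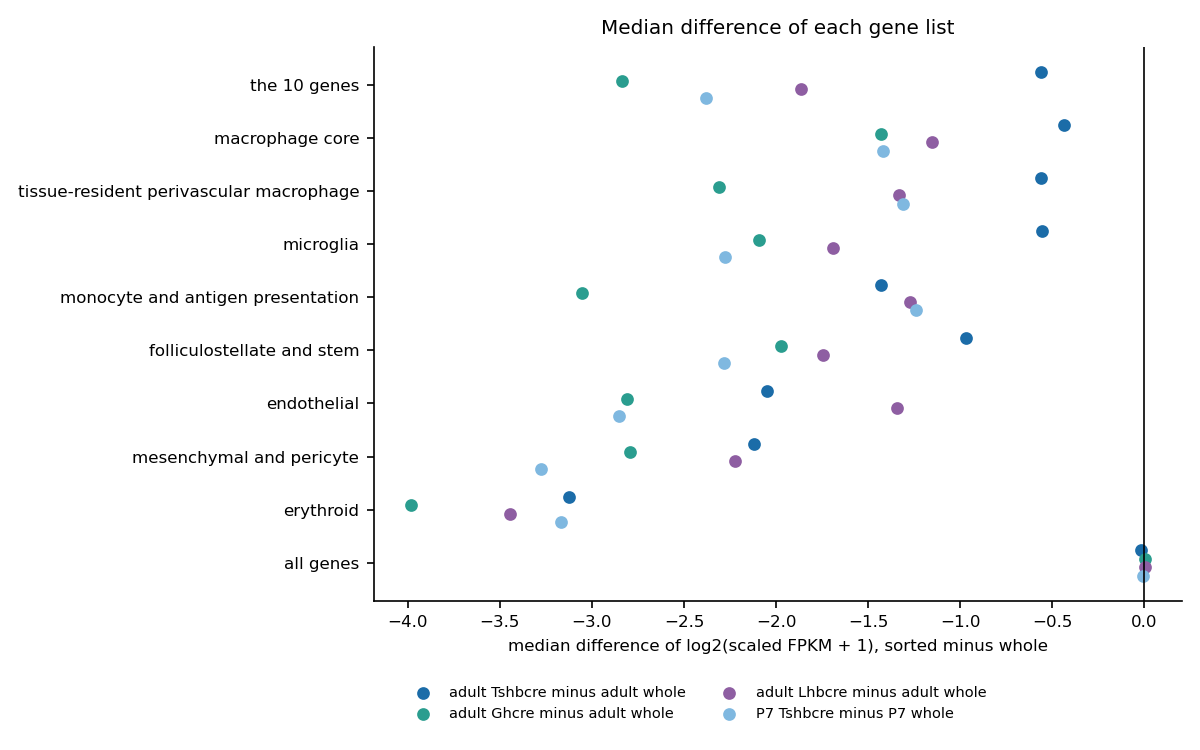
Median difference of log2(scaled FPKM + 1) between a sorted library and the whole gland of the same age for the 10 genes, for marker lists of other cells and for all genes. In adult Tshbcre the 10 genes and the macrophage core list lie at -0.56 and -0.44 while endothelial, mesenchymal and erythroid lists lie below -2; the medians of all genes lie between -0.02 and 0.00.

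The ratio among the C1q chain genes was examined because their products assemble into a single complex. C1qa over C1qc was 1.05 in adult Tshbcre, with bounds of 0.867 and 1.27, against 1.15 in the adult whole gland, with bounds of 0.981 and 1.34. It was 1.88 in adult Ghcre and 5.14 in adult Lhbcre, with bounds of 3.69 and 7.36 in adult Lhbcre that do not reach those of the adult whole gland. In the young libraries it was 2.16 in P7 Tshbcre, with bounds of 0.904 and 5.78, against 1.18 in the P7 whole gland. C1qa took 61.0%, C1qb 27.2% and C1qc 11.9% of the summed C1q level in adult Lhbcre, against 33.1%, 38.0% and 28.9% in the adult whole gland. These are ratios of levels per length and do not depend on the factor of a library. The adult Ghcre table also holds an unnamed transcript of 206 nt within C1qa, and with it the ratio there was 11.1.

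**Figure D4:**
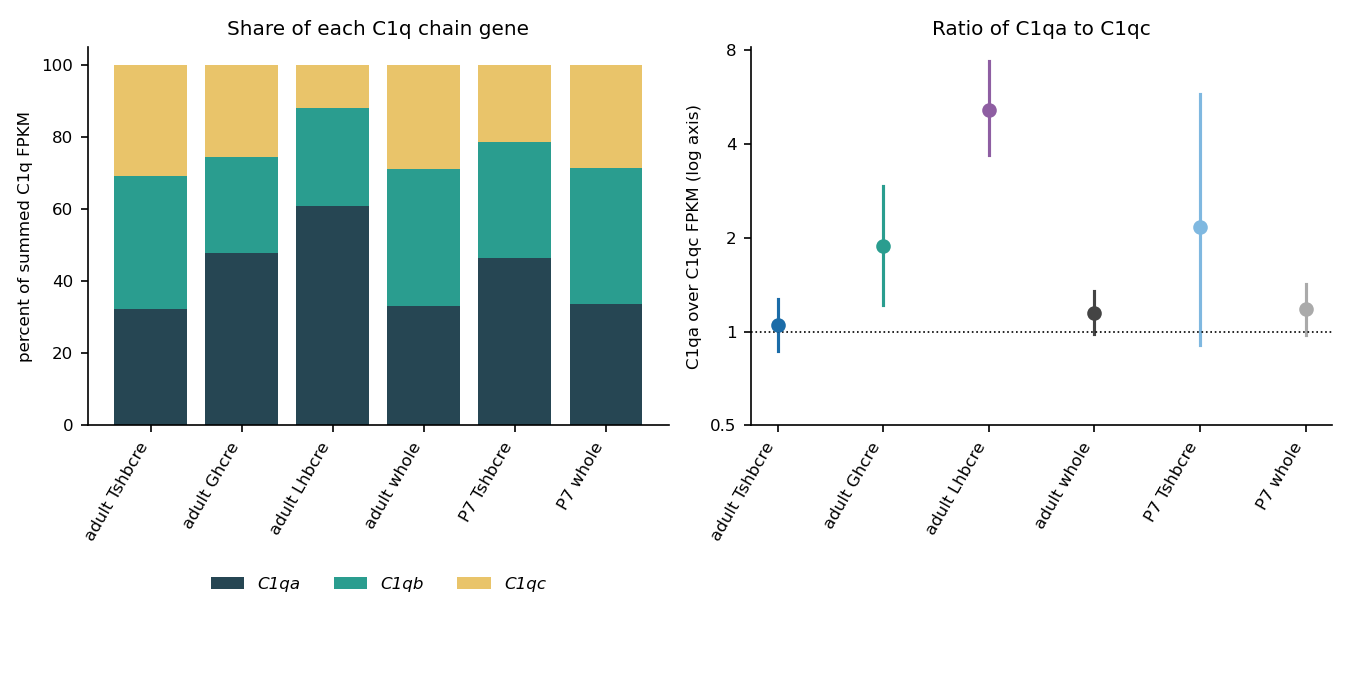
Left, percentage of the summed C1qa, C1qb and C1qc FPKM taken by each gene in each library. Right, C1qa over C1qc on a log axis with the extreme ratios that the deposited bounds allow; adult Lhbcre stands at 5.14 and the 2 whole glands and adult Tshbcre between 1.05 and 1.18.

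Other complement genes were looked at beside C1q. Among the 11 genes of the classical and lectin pathways, 4 were compared in adult Tshbcre and none was 4-fold apart. Of these 3 were lower and 1 higher, Masp1, a protease of the lectin pathway, at 4.84, against 2.19 in the adult whole gland. Serping1, the C1 inhibitor, stood at 1.83 in adult Tshbcre and 0.217 in adult Ghcre and is listed at 0 in adult Lhbcre, against 9.93 in the adult whole gland. C1s1, a protease of the C1 complex, stood at 0.252 in adult Tshbcre, against 2.46. C3, the central component, stood at 0.551 in adult Tshbcre, against 1.29, and the median over the 3 compared genes of the C3, alternative and terminal pathways was -0.09 on the log2 scale. Complement regulators had a median of 0.08, with 4 of 8 lower, 1 of them by 4-fold or more. Clu, which encodes clusterin and was the most abundant of the regulators, stood at 80.5, against 81.5. In adult Tshbcre, Serping1 and C1s1 were at 18.4% and 10.2% of the adult whole gland, and C1qa, C1qb and C1qc at 59.7%, 59.5% and 65.3%.

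A mixed list of genes of lipid-handling macrophages and of the Apoe lipid pathway included 1 that was 4-fold higher in Tshbcre cells than in the whole gland. Spp1, which encodes osteopontin, stood at 155 in adult Tshbcre and 66.1 in adult Lhbcre, against 27.2 in the adult whole gland, and at 36.7 in P7 Tshbcre, against 7.74 in the P7 whole gland. It was 4-fold higher in adult Tshbcre and P7 Tshbcre, and was the gene of its list furthest apart in both. Lrp1, a receptor that takes up particles carrying apolipoprotein E, was 4-fold lower in P7 Tshbcre, at 2.55, against 13.7 in the P7 whole gland. The median was -0.11 over the 14 genes of that list compared in adult Tshbcre, of which 8 were lower. It was -0.43 over the 15 compared in P7 Tshbcre, of which 9 were lower. Apoc1, Apoc2, Apoc4 and Nr1h3 are listed at 0 in adult Tshbcre and in P7 Tshbcre, and Apoc4 and Nr1h3 in both whole glands as well. Which cells the Spp1 level came from was not tested.

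Age was compared in whole glands and in Tshbcre cells. The adult whole gland was above the P7 whole gland for all 10 genes. By the annotated transcripts 1 of the 10 was 4-fold higher, Csf1r, which is listed at 0 in the P7 whole gland, and none was lower, where 3.28% of the 15689 genes compared were higher by that much and 3.31% lower. With the assembled transcript counted, Csf1r stood at 6.34 in the adult whole gland, against 4.01 in the P7 whole gland, or 158%, and 0 of the 10 were 4-fold higher. The 9 genes above 0 in both were at 129% to 367% of the P7 whole gland, with a median of 217%, and the bounds overlapped for Tyrobp. The highest of these was Aif1 at 367%, which was at 151% with the assembled transcript in the P7 whole gland counted. C1qa, C1qb and C1qc were at 217%, 224% and 223%, Lyz2 at 314%, Apoe at 184% and Cx3cr1 at 146%.

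Among the lists, genes of monocytes and antigen presentation differed most between the whole glands. In the adult whole gland 4 of its 7 compared genes were 4-fold higher and 1, the fibronectin gene Fn1, was lower, with a median log2 difference of 2.87. Cd74, the invariant chain of MHC class II, stood at 63.9 in the adult whole gland, against 5.08 in the P7 whole gland, and H2-Aa, an MHC class II chain, at 25.7, against 1.33. The macrophage core list had a median of 0.44 with 0 of 19 genes 4-fold apart, and the folliculostellate and stem list a median of -0.40.

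The adult Tshbcre library was above the P7 Tshbcre library for all 9 members compared. Of these 6 were 4-fold higher, 5 of them above 0 in both, where 4.64% of the 16029 genes compared were, or 0.688% of those above 0 in both. None was lower, where 3.57% of genes were, and the median log2 difference was 2.64, against -0.02 over all genes. Lyz2 stood at 11.0 in adult Tshbcre, against 0.00995 in P7 Tshbcre (log2 difference 3.57), and Apoe at 66.2, against 5.16 (3.45). The C1q genes differed by 2.64 to 3.01 on the log2 scale. Ctss stood at 13.8, against 0.576, and Cd74 at 18.1, against 0.575. Markers of other cells were higher in adult Tshbcre as well. Of 10 folliculostellate and stem genes compared, 4 (Cyp2f2, Mia, Aldh1a2 and Rbpms) were 4-fold higher and none was lower, with a median of 1.86 and a summed level of 100.4, against 12.7 in P7 Tshbcre. Cyp2f2, a cytochrome P450, stood at 33.2, against 0.368. The median was 1.17 over the macrophage core list, 0.92 over mesenchymal and pericyte genes, of which 1 of 8 was 4-fold higher (Mgp), and 0.83 over endothelial genes, of which 0 of 8 were. The part of other cells in the difference of the members between ages was not tested. Of the 8 genes above 0 in all 4 libraries, the log2 difference between ages was larger in Tshbcre cells than in whole glands for 7, by 0.88 for Cx3cr1 to 2.58 for Apoe, and smaller for Aif1. This difference was not tested.

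**Figure D5:**
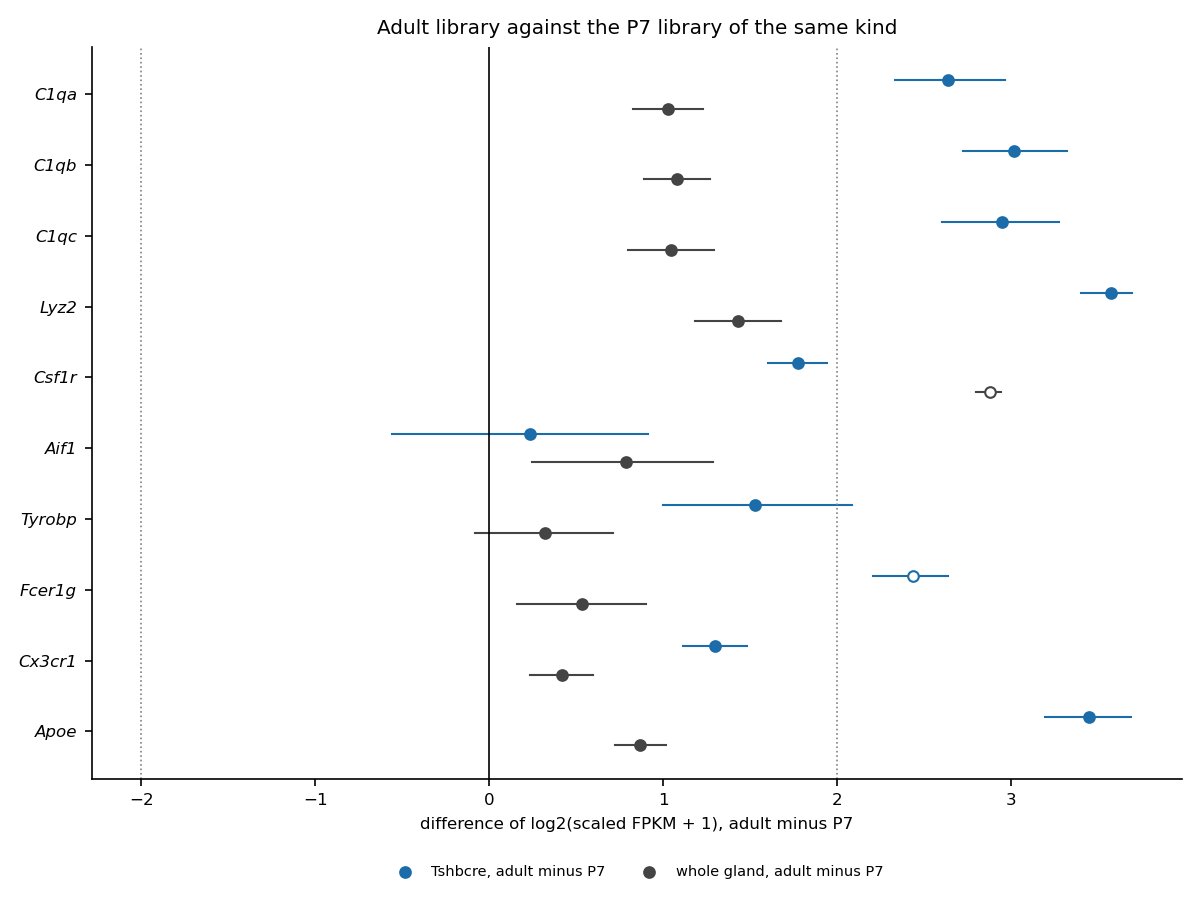
Difference of log2(scaled FPKM + 1) of each gene between the adult and the P7 library, in Tshbcre cells and in whole glands, with lines for the most extreme differences the deposited bounds allow. Open points mark a gene listed at 0 in the P7 library; Tshbcre points lie right of whole-gland points for C1qa, C1qb, C1qc, Lyz2, Tyrobp, Fcer1g, Cx3cr1 and Apoe.

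The 10 genes closest to the median profile of the members were sought among 6377 protein-coding genes, by the root mean square distance of centred log2 profiles over 5 libraries, without adult Ghcre. The 6377 genes were no members, were above 0 in all 5 libraries and reached 5 scaled FPKM in at least 1 of them. The closest 10 were Gstt1, Mpeg1, Trf, Laptm5, Ly6e, Ezr, Ctss, Aldh2, Lhx3 and Nr3c2, at distances of 0.210 to 0.377. The members themselves differed in how near they lay to their median profile. Of the 6377 genes, 0 were nearer to it than C1qa or Fcer1g, 33 than Cx3cr1 and 60 than Tyrobp. For Csf1r, taken with its listed 0 in the P7 whole gland, 753 were nearer, and for Aif1 1272. The median profile was taken from the members themselves, so their nearness to it is partly built in and these counts test nothing. Fcer1g, Cx3cr1, Csf1r and Aif1 would not have passed the filter set for the 6377 genes. Mpeg1, Laptm5 and Ctss are also on the macrophage core list. Gstt1, a glutathione transferase, stood at 5.88 in adult Tshbcre and 2.35 in adult Lhbcre, against 9.94 in the adult whole gland, and at 0.652 in P7 Tshbcre, against 6.59 in the P7 whole gland. Lhx3, a homeodomain factor of the pituitary epithelium, was among them at 31.3 in adult Tshbcre, against 26.7 in the adult whole gland, and at 3.32 in P7 Tshbcre, against 23.3 in the P7 whole gland.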

How the data were processed

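Per the file headers, each library has 1 isoform table from Cufflinks, whose lines are transcripts. A line gives the FPKM computed by the authors, its interval bounds and a deposited coverage signal, which is a constant multiple of FPKM in each file and was used as relative depth. The submitters' processing notes name FastQC, Bowtie2, Cufflinks and mm39 and give no versions; the sources used here do not say whether strand was used in counting. The adult Ghcre table ends on chromosome 5 at position 44957466, and genes past that point count as not measured.

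The FPKM of a gene was summed over its annotated transcripts and divided by the median ratio to the geometric mean over 5808 genes with at least 1 FPKM in each of the 6 libraries. Differences are of log2(scaled FPKM + 1), with a pseudocount of 1, and a gene was apart at 4-fold with the higher library at 1 or more. A listed 0 was not taken as absence. Groups came from the labels. The members and lists were chosen with earlier results of these data known. From each list the text names genes above 0 in both libraries and 4-fold apart, up to 4 per comparison, or otherwise the 2 most abundant in the library compared against, and always Csf1, Il34 and Cx3cl1; others named (Lyz1, Fn1, Masp1, Clu, Tshb, Lhb, Gh and markers listed at 0) were chosen after their values were seen. Not every result this rule gives is reported here. Promoters came from RefSeq tables. Calling was tested on simulated data. Python 3.11.15, pandas 2.3.3, numpy 2.4.6 and matplotlib 3.10.9 were used.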

Additional observations from a re-analysis of the deposited data

Results flagged for a closer look

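Csf1r is listed at 0 in the P7 whole gland by its annotated transcript, and the same table holds an unnamed assembled transcript under its gene identifier at 4.01 scaled FPKM, a signal outside the measure used for the comparisons. Aif1 is listed at 0 in adult Lhbcre in the same way, and an unnamed assembled transcript under its gene identifier stands there at 0.412 scaled FPKM. The part of the assembly in these values was not tested.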

How the results depend on the processing

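Each count of members 4-fold apart was recomputed under 8 other settings and a further 1 chosen after the data were seen, which adds unnamed assembled transcripts that share a gene identifier with the named gene. Of 81 recomputed counts, 71 stayed within 1.5 times the count reported. The 9 counts with no minimum level are among these 71 and could not change. At a pseudocount of 1, a gene that is 4-fold apart is always above 1 in the higher library. In adult Lhbcre against the adult whole gland, where 5 members were apart, the count was 3 with equal sums, 8 with a pseudocount of 0.1 and 3 with assembled transcripts of the locus added. In the adult whole gland against the P7 whole gland, where 1 was apart, it was 0 with assembled transcripts of the locus, 0 with those of the same gene identifier and 0 over genes above 0 in both, since Csf1r is then above 0 or left out. In adult Tshbcre against adult Lhbcre, where 3 were apart, it was 1 with equal sums and 0 with assembled transcripts of the locus. In adult Tshbcre against adult Ghcre, where 5 were apart, it was 1 with equal sums, and in adult Lhbcre against adult Ghcre, where 0 were apart, it was 2 with a pseudocount of 0.1. The cause of these differences was not tested. Of 722 recomputed differences of single members, 534 stayed within the range the deposited bounds allow and none of a gene counted as apart changed sign. Some of the 534 could not move, since settings that change only which genes are compared leave a difference as it was. These were 81 with a minimum of 5, 81 with no minimum and 74 over genes above 0 in both. Csf1r and Aif1, which were not compared in P7 Tshbcre against the P7 whole gland, stood at 0.28 and 0.21 there and at -2.16 and -0.34 with assembled transcripts of the same gene identifier and library factors recomputed (-2.04 and -0.27 with the factors kept). Equal sums moved the median of all genes to 1.10 in adult Ghcre and 0.37 in adult Lhbcre against the adult whole gland, and to 0.27 in P7 Tshbcre against the P7 whole gland; FPKM as deposited moved it to -0.46, -0.16 and -0.47. The members lay below the whole gland by a median of -2.14 in adult Ghcre, -1.48 in adult Lhbcre and -2.14 in P7 Tshbcre with equal sums. No paired analysis was possible because each group is 1 library and no result comes from a test. No library could be left out for the same reason, and depth limits what a listed 0 can show.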

Other observations

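Mast cell genes gave values that belong to no comparison of the members. Hdc, which encodes the enzyme that makes histamine, stood at 11.4 scaled FPKM in adult Tshbcre, 2.34 in adult Lhbcre and is listed at 0 in adult Ghcre, against 2.91 in the adult whole gland, and stood at 10.3 in P7 Tshbcre, against 2.0 in the P7 whole gland. Kit, the receptor for stem cell factor, stood at 0.380 in adult Tshbcre, against 1.50 in the adult whole gland, and at 0.524 in P7 Tshbcre, against 4.76 in the P7 whole gland. Fcer1a, the alpha chain of the IgE receptor, which works with the product of Fcer1g, is listed at 0 in all 4 sorted libraries and in the P7 whole gland.

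Antigen presentation genes differed among the adult sorted libraries as well. The MHC class II genes H2-Aa, H2-Ab1 and H2-Eb1 stood at 1.42, 1.64 and 1.05 in adult Ghcre, against 5.83, 6.52 and 5.79 in adult Lhbcre. Cd74 stood at 18.1 in adult Tshbcre and 26.2 in adult Lhbcre and is listed at 0 in adult Ghcre, against 63.9 in the adult whole gland, while the macrophage gene Mpeg1 stood at 5.76 in adult Tshbcre and 0.970 in adult Lhbcre, against 8.66 in the adult whole gland. Cd79b, a chain of the B cell receptor complex, stood at 4.41 in adult Ghcre, against 2.10 in the adult whole gland, and 1 of the 3 B cell genes listed in adult Ghcre was at 1 or more.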
